A study of Mus musculus with 4 samples.

Results

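The receptors for glutamate and GABA, the main excitatory and inhibitory transmitters of the brain, are described here at the level of their transcripts in a cultured glial preparation. Members were all genes whose symbol begins with *Gria*, *Grik*, *Grin*, *Grm*, *Gabr* or *Gabbr* followed by a number or subunit letter, read through probe sets annotated to 1 symbol and averaged per gene. This gave 40 of the 22180 genes with a probe set of their own, on 45 probe sets. *Grina*, whose last letter does not name a receptor subunit, was not counted. Other genes that fit the rule were not analysed here.

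Cerebral cells of C3H/He mice, taken from pups at 3 days of age, were grown as a primary culture labelled as astrocytes, from which loosely attached cells of the oligodendrocyte lineage had been shaken off before replating. Cells received IFNγ at 250 IU/mL together with benztropine, IFNγ alone, benztropine alone at 2.0 μM, or neither agent (control), each for 48 h, and all cells were of that strain. IFNγ is a cytokine of lymphocytes, and benztropine is an antagonist of muscarinic acetylcholine receptors. RNA of 3 independent cultures was mixed in equal amounts before labelling, and 1 Affymetrix Mouse Gene 2.0 ST array was run per condition. There are thus no replicate arrays, and a difference between 2 arrays comes with no estimate of its error. The effect of IFNγ can be read in 2 pairs that share no array, IFNγ against control and both agents against benztropine, and that of benztropine in benztropine against control and both agents against IFNγ.

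Glutamate acts on ion channels of the AMPA, kainate and NMDA types, named for compounds that open them, and on metabotropic receptors, which signal through G proteins. GABA opens the chloride channels of the GABA-A type, built from alpha, beta and gamma or other subunits, and acts on the G protein-coupled GABA-B receptor. Astrocytes are known to carry several of these receptors, to clear both transmitters from the synapse and to respond to glutamate with calcium signals. Values are log2 signals, so that a difference of 1 is a doubling. A gene was taken as above background on an array when its signal exceeded the 95th percentile of that array's 1405 olfactory and vomeronasal receptor probe sets, a level of 6.64 to 6.69. Such receptors are active mainly in sensory neurons of the nose. Probe sets differ in how brightly they read, so that differences were taken between arrays for 1 gene. The background calls, the counts by family built on them and the sums over gene lists do compare or add signals of different genes. They carry this limit.

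Markers of the labelled cell type were present, with 14 of 15 astrocyte genes above background in control, and all 13 genes of microglia and macrophages were above background on every array too. Of 15 general neuronal genes, 7 were above background on all 4 arrays, and *Snap25*, *Syp*, *Nefl*, *Nefm*, *Elavl4*, *Celf4* and *Dcx* on none. Of 7 genes of excitatory neurons, 1 was above background on all 4 arrays, *Camk2a*, and *Slc17a6* and *Slc17a7*, which load glutamate into synaptic vesicles, were above it on none. Of 9 genes of inhibitory neurons, 4 were above background on all 4 arrays, *Dlx2*, *Lhx6*, *Npy* and *Sst*, and *Gad1*, which makes GABA, was above it on 3. *Gad2*, which also makes GABA, and *Slc32a1*, which loads it into vesicles, were above background on none. Of 13 oligodendrocyte lineage genes, 7 were above background on all arrays, among them *Olig1*, *Olig2* and *Pdgfra*. Of 10 known IFNγ-induced genes, 9 were more than 1.5-fold higher with IFNγ than in control and 9 with both agents than with benztropine.

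Of the 40 receptor genes, 15 were above background on all 4 arrays, where 55.9% of all genes were. On at least 1 array 18 were above it, where 61.4% of all genes were, and 22 were above it on none. By array, 15 receptor genes were above background with both agents, 16 with IFNγ, 16 with benztropine and 17 in control, where 58.6%, 59.1%, 59.1% and 58% of all genes were. The receptor genes differed by family. All 4 AMPA genes, 4 of 5 kainate genes and both GABA-B genes were above background on every array. Of the 16 GABA-A genes 5 were, and of the 6 NMDA and 7 metabotropic genes 0. With the 99th percentile of the nasal receptors as background, 9 receptor genes remained above it on all arrays, *Gria1*, *Gria2*, *Gria3*, *Grik5*, *Gabra4*, *Gabrb1*, *Gabrg1*, *Gabbr1* and *Gabbr2*, against 37.2% of all genes.

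**Figure D1:**
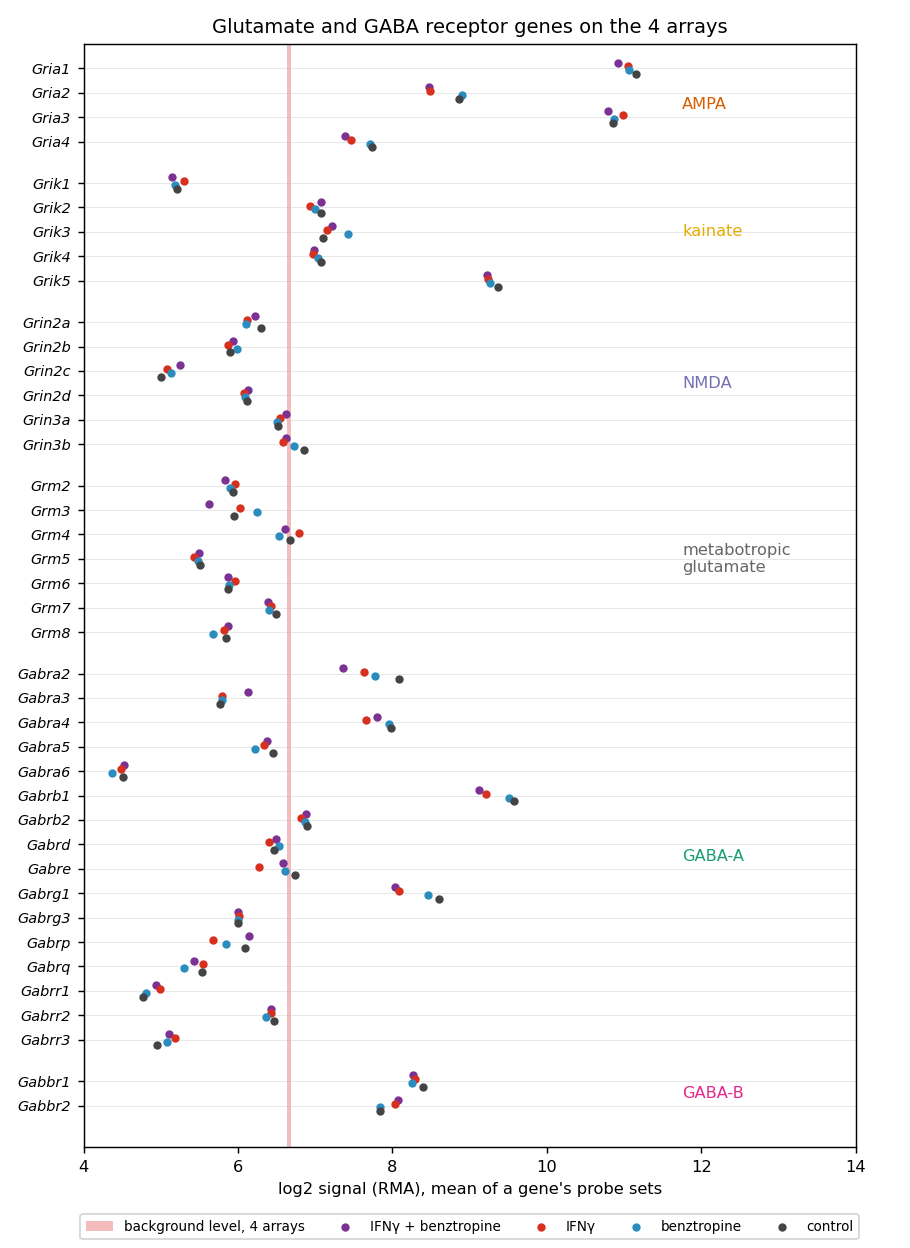
Log2 signal of each of the 40 receptor genes (rows, by family) on the 4 arrays, 1 point per array, with the background level of the 4 arrays (6.64 to 6.69) as a shaded band. The AMPA and GABA-B genes lie right of the band on every array, and most NMDA and metabotropic genes lie left of it.

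The AMPA genes encode the subunits of the channels that carry most fast excitation. *Gria1* had log2 signals of 10.92 with both agents, 11.05 with IFNγ, 11.07 with benztropine and 11.15 in control. *Gria3* had 10.79 with both agents, 10.99 with IFNγ, 10.87 with benztropine and 10.85 in control. For neither gene did any 2 arrays differ by as much as 1.2-fold. *Gria2*, whose subunit in its edited form keeps the channel nearly closed to calcium, separated by IFNγ. Its log2 signal was 8.47 with both agents and 8.48 with IFNγ, against 8.91 with benztropine and 8.87 in control. *Gria4* was likewise low on both arrays with IFNγ, at 7.38 with both agents and 7.46 with IFNγ, against 7.71 with benztropine and 7.74 in control. For both genes the arrays with IFNγ lay below both arrays without it.

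Kainate channels are built from *Grik1*, *Grik2* and *Grik3* subunits, alone or with the *Grik4* and *Grik5* subunits, which need one of the others to form a channel. *Grik5*, the 1 kainate gene above the 99th percentile of the nasal receptors on every array, had log2 signals of 9.22 with both agents, 9.24 with IFNγ, 9.26 with benztropine and 9.36 in control. *Grik2* had 7.07 with both agents, 6.94 with IFNγ, 6.997 with benztropine and 7.07 in control, and *Grik4* had 6.99, 6.98, 7.03 and 7.07 in the same order. Both were above the background level but below the 99th percentile on every array. *Grik3* stood at 7.22 with both agents, 7.16 with IFNγ, 7.42 with benztropine and 7.10 in control, so that the array with benztropine alone was the highest. *Grik1* was not above background on any array (5.15 to 5.30).

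The NMDA channel requires the *Grin1* subunit, which was not analysed here, together with glutamate-binding *Grin2* or glycine-binding *Grin3* subunits. *Grin3b* had 6.62 with both agents and 6.58 with IFNγ, below background, against 6.73 with benztropine and 6.85 in control, above it. *Grin3a* (6.51 to 6.62) and *Grin2a* (6.11 to 6.30) were below background on every array, as were *Grin2d* (6.07 to 6.12), *Grin2c* (up to 5.24) and the mean of *Grin2b*. *Grin2b* was read by 2 probe sets that disagreed. One had log2 signals of 6.67 to 6.80, above background on all arrays, and the other 4.98 to 5.19.

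Among metabotropic receptors, *Grm5* signals through calcium release and *Grm3* lowers cyclic AMP, and both are known from astrocytes of the young brain. *Grm5*, named here after its values were seen, had log2 signals of 5.43 to 5.50, and *Grm3* of 5.63 to 6.24, all below background. *Grm4*, an inhibitory receptor of nerve endings, had 6.61 with both agents, 6.79 with IFNγ, 6.53 with benztropine and 6.67 in control, and was above background with IFNγ alone. *Grm7*, another receptor of nerve endings, averaged 6.39 to 6.50. Its 2 probe sets were at 6.83 to 7.08, above background, and at 5.69 to 6.17, below it. *Grm2*, *Grm6* and *Grm8* were below background on all arrays (5.67 to 5.96). A further probe set shared by *Grm8* and *Mir592*, left out of the means, was below it too (4.12 to 4.67).

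The GABA-B receptor is a pair of *Gabbr1*, which binds GABA, and *Gabbr2*, which couples to the G protein, and both were above background on every array. *Gabbr1* had log2 signals of 8.26 with both agents, 8.29 with IFNγ, 8.25 with benztropine and 8.40 in control. *Gabbr2* had 8.07 with both agents and 8.03 with IFNγ, against 7.84 with benztropine and 7.83 in control. *Gabbr2* was thus the 1 gene of the pair in which both arrays with IFNγ lay above both arrays without it.

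Most GABA-A subunit genes lie in 4 clusters, and the clusters differed in which members were above background. In RefSeq order, the cluster on chromosome 5 holds *Gabrg1*, *Gabra2*, *Gabra4* and *Gabrb1*, with *Cox7b2* as the other coding gene in the interval. All 4 receptor genes of this cluster were above background on every array. In the cluster on chromosome 11, *Gabrb2* had 6.88 with both agents, 6.81 with IFNγ, 6.87 with benztropine and 6.90 in control, all above background. *Gabra6* of that cluster, known from cerebellar granule neurons, was above it on no array (4.37 to 4.52). *Gabra5* (6.22 to 6.46) and *Gabrg3* (up to 6.02) on chromosome 7 were above background on no array. On chromosome X, *Gabre* had 6.58 with both agents, 6.28 with IFNγ, 6.61 with benztropine and 6.74 in control, above background in control alone, and *Gabra3* (5.76 to 6.13) and *Gabrq* (5.29 to 5.54) were above it on no array. Of the genes outside the clusters, *Gabrd* (6.40 to 6.53), whose subunit serves channels outside synapses, *Gabrr2* (6.36 to 6.47), known from the retina, and *Gabrr1*, *Gabrr3* and *Gabrp* (4.77 to 6.14) were below background throughout.

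All 4 genes of the chromosome 5 cluster read lower on both arrays with IFNγ than on the arrays they pair with. *Gabrg1* had log2 signals of 8.03 with both agents and 8.08 with IFNγ, against 8.46 with benztropine and 8.60 in control. *Gabrb1* had 9.12 with both agents and 9.21 with IFNγ, against 9.51 with benztropine and 9.58 in control. In both genes the arrays with IFNγ were the lower ones. *Gabra4* had 7.80 with both agents and 7.66 with IFNγ, against 7.96 with benztropine and 7.98 in control. *Gabra2* had 7.35 with both agents, 7.64 with IFNγ, 7.78 with benztropine and 8.08 in control. *Gabra2* was the 1 gene of the cluster that was lower with each agent by over 1.2-fold and lowest with both.

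The 250 bases before the annotated start of these genes, and of *Gria2* and *Gria4*, are shown. These 6 genes were picked with their values known. All 6 read lower with IFNγ in both pairs, as did other receptor genes such as *Gria1* and *Grik5*. Sequences are from RefSeq (GRCm38.p6), 5′ to 3′ on the strand of the gene, with capitals marking matches to the motifs searched, those on the other strand as their reverse complement. The windows are chr5:70842618-70842867 (minus strand) for *Gabrg1*, chr5:71095850-71096099 (minus strand) for *Gabra2*, chr5:71658309-71658558 (minus strand) for *Gabra4* and chr5:71657671-71657920 (plus strand) for *Gabrb1*. The others are chr3:80802836-80803085 (minus strand) for *Gria2* and chr9:4796235-4796484 (minus strand) for *Gria4*.
Gabrg1: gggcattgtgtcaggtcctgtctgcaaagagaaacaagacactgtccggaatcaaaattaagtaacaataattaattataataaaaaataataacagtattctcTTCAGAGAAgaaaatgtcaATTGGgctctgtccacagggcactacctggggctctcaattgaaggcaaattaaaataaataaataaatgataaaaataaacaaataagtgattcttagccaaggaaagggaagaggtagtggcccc
Gabra2: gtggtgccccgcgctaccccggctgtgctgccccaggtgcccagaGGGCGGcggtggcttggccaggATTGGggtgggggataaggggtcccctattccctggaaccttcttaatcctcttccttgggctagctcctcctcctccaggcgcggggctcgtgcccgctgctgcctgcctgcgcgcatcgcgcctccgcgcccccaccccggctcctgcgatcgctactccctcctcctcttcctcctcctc
Gabra4: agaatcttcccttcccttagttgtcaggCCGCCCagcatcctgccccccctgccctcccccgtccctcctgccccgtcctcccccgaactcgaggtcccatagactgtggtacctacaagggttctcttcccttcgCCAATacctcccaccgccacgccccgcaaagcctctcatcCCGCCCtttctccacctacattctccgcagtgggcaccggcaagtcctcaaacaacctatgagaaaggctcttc
Gabrb1: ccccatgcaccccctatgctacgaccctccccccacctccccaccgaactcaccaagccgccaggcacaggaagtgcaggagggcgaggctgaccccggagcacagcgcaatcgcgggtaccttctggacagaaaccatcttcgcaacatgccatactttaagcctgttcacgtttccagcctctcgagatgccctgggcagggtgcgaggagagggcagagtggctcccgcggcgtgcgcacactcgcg
Gria2: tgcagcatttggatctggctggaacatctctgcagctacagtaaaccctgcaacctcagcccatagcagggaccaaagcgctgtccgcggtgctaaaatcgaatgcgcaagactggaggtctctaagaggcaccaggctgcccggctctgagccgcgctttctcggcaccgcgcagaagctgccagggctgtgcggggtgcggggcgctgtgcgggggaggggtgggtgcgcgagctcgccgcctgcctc
Gria4: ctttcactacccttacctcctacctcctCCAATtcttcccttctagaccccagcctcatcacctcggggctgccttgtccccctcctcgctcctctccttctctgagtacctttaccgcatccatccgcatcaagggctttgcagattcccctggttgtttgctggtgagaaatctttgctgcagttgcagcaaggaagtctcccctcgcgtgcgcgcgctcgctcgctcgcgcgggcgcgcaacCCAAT
Each motif was searched on both strands. GAS (TTCNNNGAA) is the element bound by STAT proteins of the IFNγ pathway. ISRE, another interferon element, was searched as a pair of GAAA parted by any 2 bases. The remaining motifs were CRE (TGACGTCA), a cyclic AMP element, the TATA box, searched with the letters TATAAA, the GC box, searched with the letters GGGCGG, and the CCAAT box, searched by its name. The *Gabrg1* window held 1 GAS match, 146 to 138 bases before the start. A GAS match is found in 7.02% of all 32851 promoter windows of this length and in 2 of the 38 windows of 31 receptor genes, the other being that of *Gabra6*. None of the 6 windows held an ISRE match, found in 2.98% of all windows, or a CRE or TATA match, found in 1.55% and 12.4%. CCAAT matches lay in the windows of *Gabrg1*, *Gabra2*, *Gabra4* and *Gria4* (33.8% of all windows), and GC boxes in those of *Gabra2* and *Gabra4* (32.7%). No 2 matches in these windows overlapped. In base composition *Gabrg1* stood apart from the other 5, with 35.6% GC and 1 CpG, against 58.8% to 70.0% GC and 12 to 19 CpG, where the median of all windows was 52.4% GC and 6 CpG. *Gabra4* and *Gabrb1* start head to head with overlapping ends. Where their probes lie relative to that overlap is not known here. *Gabrb1* has a second annotated start, whose window held no match. A match is a description of the sequence and was not tested for binding.

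No receptor gene passed the 1.5-fold threshold of the study with IFNγ against control, where 1.68% of all genes did (1.39% higher and 0.289% lower). With both agents against benztropine 1 gene did, *Grm3*, where 1.6% of all genes passed (1.25% higher and 0.347% lower). *Grm3* was lower by 0.61 on the log2 scale (5.63 against 6.24), both below background, and with IFNγ against control it differed by 0.07. Differences of like size in both pairs were smaller. With IFNγ against control, and then with both agents against benztropine, the log2 difference was −0.52 and −0.43 for *Gabrg1*, −0.45 and −0.42 for *Gabra2*, and −0.37 and −0.39 for *Gabrb1*. In the same order it was −0.38 and −0.43 for *Gria2*, −0.28 and −0.33 for *Gria4*, and −0.32 and −0.16 for *Gabra4*. As folds, the *Gabrg1* signal was 1.43-fold lower in the first pair and 1.35-fold lower in the second.

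A threshold of 1.2-fold in the same direction in both pairs, chosen after these values were seen, was passed by 5 of the 40 receptor genes downward (*Gabrg1*, *Gabra2*, *Gabrb1*, *Gria2* and *Gria4*) and by 0 upward. Over all genes, 1.36% passed it downward and 2.62% upward. Among genes above background on all 4 arrays, 5 of the 15 receptor genes passed downward, where 1.42% of all such genes did, and 0 passed upward, where 3.08% did. The largest positive difference shared by both pairs among these 15 was that of *Gabbr2*, at 0.20 and 0.23. *Gria1* differed by −0.10 and −0.14 and *Gria3* by 0.14 and −0.07, so that the 4 AMPA genes did not share 1 direction. Of the 3 genes above background on some arrays, *Gabre* differed by −0.46 and −0.03, *Grin3b* by −0.27 and −0.10, and *Grm4* by 0.12 and 0.08.

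**Figure D2:**
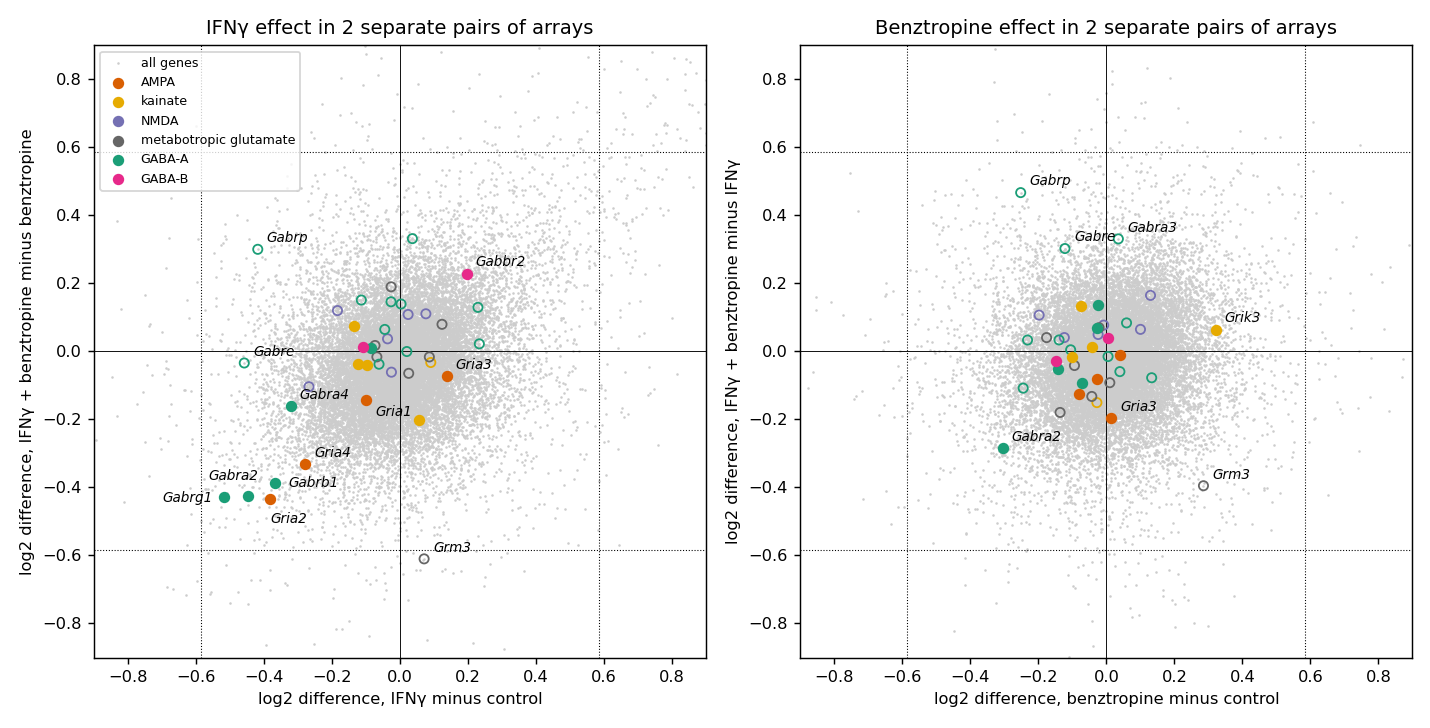
Log2 differences of the receptor genes (coloured by family, filled where above background on all 4 arrays, open otherwise) over all 22180 genes (grey), with 1 pair of arrays on each axis and dotted lines at 1.5-fold; axes end at 0.9, leaving 189 genes outside for IFNγ and 21 for benztropine. For IFNγ, *Gabrg1*, *Gabra2*, *Gabrb1*, *Gria2* and *Gria4* lie together at the lower left. For benztropine, *Gabra2* is the 1 receptor gene past 1.2-fold downward on both axes, where 0.631% of all genes are.

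A limma fit with additive terms for IFNγ and benztropine over the 4 arrays, which has 1 residual degree of freedom and adjusts over all 22180 genes, called 0 receptor genes for IFNγ at an adjusted p under 0.05. Over all genes it called 0.726% higher and 0.0271% lower. The 1 residual degree of freedom mixes array error with any departure of both agents together from the sum of their single effects. The SEs and p-values thus do not measure variation between cultures. With no adjustment, the 6 receptor genes given next were lower at p under 0.05, where 6.53% of all genes were. Likewise 1, *Gabbr2*, was higher, where 5.87% of all genes were. The estimate for *Gabrg1* was −0.47 ± 0.07 (log2, SE), with a limma adjusted p of 0.12. The estimates were −0.44 ± 0.07 for *Gabra2* (limma adjusted p = 0.13), −0.41 ± 0.07 for *Gria2* (0.15) and −0.38 ± 0.07 for *Gabrb1* (0.17). For *Gria4* the estimate was −0.31 ± 0.07 (limma adjusted p = 0.24), and for *Gabra4* −0.24 ± 0.08 (0.35). Other settings of the fit gave other counts, and the cause was not tested. With robust variances limma called 0 receptor genes, where it called 0.726% of all genes higher and 0.0271% lower, and after quantile normalization 0, where it called 0.902% higher and 0.0631% lower. With a variance trend on mean signal it called 4 receptor genes lower, *Gabrg1*, *Gabrb1*, *Gria2* and *Gabra2*, at limma adjusted p-values of 0.016 to 0.029, where it called 1.89% of all genes higher and 0.6% lower. With genes that were above background on at least 1 array as the only genes in the fit, limma called the same 4 genes, at 0.017 to 0.032, where it called 2.79% of the genes in the fit higher and 0.91% lower. Over these settings, robust variances and quantile normalization, the limma adjusted p of *Gabrg1* ran between 0.016 and 0.13.

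Over all 40 receptor genes, the median log2 difference was −0.05 with IFNγ against control and −0.01 with both agents against benztropine, beside 0.00 and −0.04 over all genes. Over the 15 above background on all arrays it was −0.12 and −0.14, beside 0.00 and −0.04 for all such genes. Of these 15, 12 were below 0 in the first pair and 11 in the second, where 50.4% and 62.0% of all such genes were. A gene that was low on any array had no place among the 15, so that genes near background on the arrays with IFNγ are missing from these medians. The 22 receptor genes above background on no array had medians of −0.01 and 0.05.

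**Figure D3:**
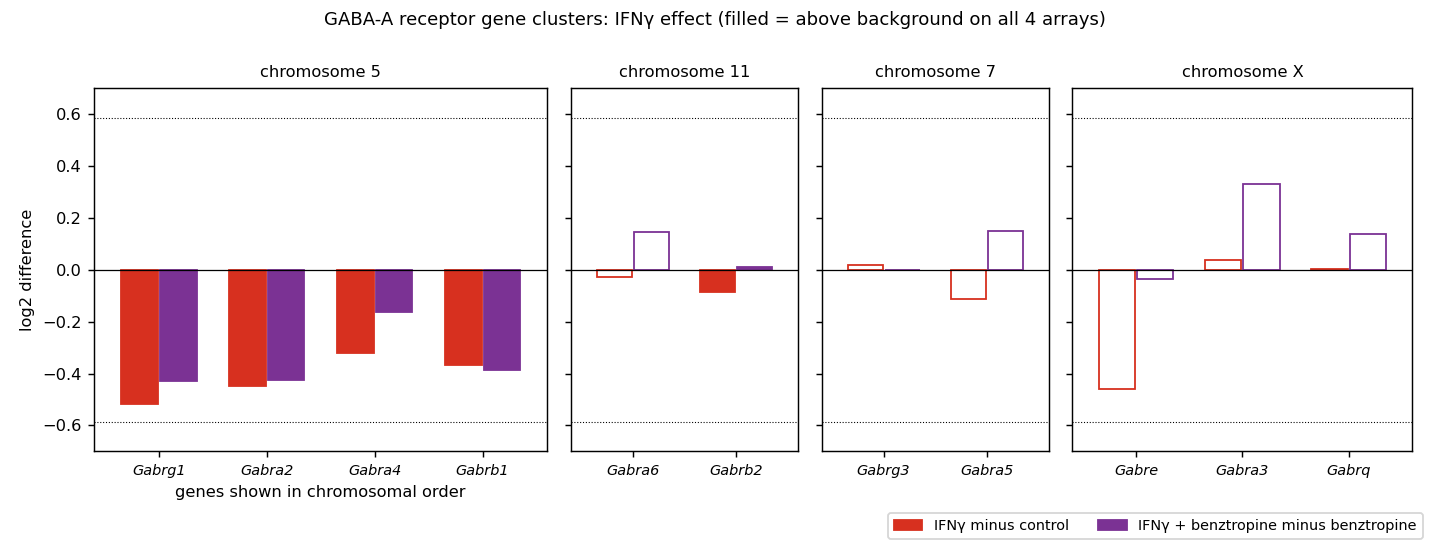
Log2 differences with IFNγ (red) and, in the presence of benztropine, with both agents (purple) for the GABA-A genes analysed in 4 chromosomal clusters, in RefSeq order, filled where the gene was above background on all 4 arrays; dotted lines mark 1.5-fold. All 8 bars of the chromosome 5 cluster point down, between −0.52 and −0.16.

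Markers of the astrocytes themselves read lower with IFNγ as well. Of the 13 astrocyte genes above background on all arrays, 11 were lower with IFNγ than in control, with a median log2 difference of −0.16. All 13 were lower with both agents than with benztropine, with a median of −0.21. Of all genes above background on all 4 arrays, 50.4% were below 0 in the first of these pairs and 62.0% in the second. *Ntsr2*, a neurotensin receptor gene of astrocytes, differed by −0.63 and −0.57, and the water channel gene *Aqp4* by −0.12 and −0.21. The summed linear signal of all 15 astrocyte genes was 22355 with both agents and 24642 with IFNγ, against 25835 with benztropine and 27549 in control. For the oligodendrocyte lineage, 7 genes above background on all arrays had medians of −0.06 and −0.09. Of these 7, 6 were below 0 in the first pair and 5 in the second. *Olig1* was the lowest in both, at −0.30 and −0.27, and *Mbp* differed by 0.21 and 0.00. The summed signal of the 13 genes of this list was 2955 with both agents and 2931 with IFNγ, against 3274 with benztropine and 3203 in control. For general neuronal genes the medians over 7 genes were −0.05 and −0.16, with 4 below 0 in the first pair and 6 in the second. *Tubb3* of these 7 was higher in both, at 0.26 and 0.42. The summed signal of 15 neuronal genes was 4048 with both agents and 4117 with IFNγ, against 4475 with benztropine and 4455 in control. The 7 fibroblast and leptomeningeal genes summed to 4712 with both agents and 4733 with IFNγ, against 5732 with benztropine and 5783 in control. In all such sums the brightest probe sets weigh most, here *Fn1*, at a log2 signal of 12.13 in control. Over all 7 genes, the median log2 difference was −0.20 with IFNγ against control and −0.18 with both agents against benztropine. The summed signal of 13 microglial and macrophage genes was 35391 with both agents and 35045 with IFNγ, against 32261 with benztropine and 29934 in control. The median log2 difference over these 13 genes was 0.11 with IFNγ against control and −0.11 with both agents against benztropine, and 5 of them were below 0 in the first pair and 7 in the second. In RNA of a mixed culture, fewer cells of a type and less RNA per cell cannot be told apart, and the part of these shifts in the receptor values was not tested.

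**Figure D4:**
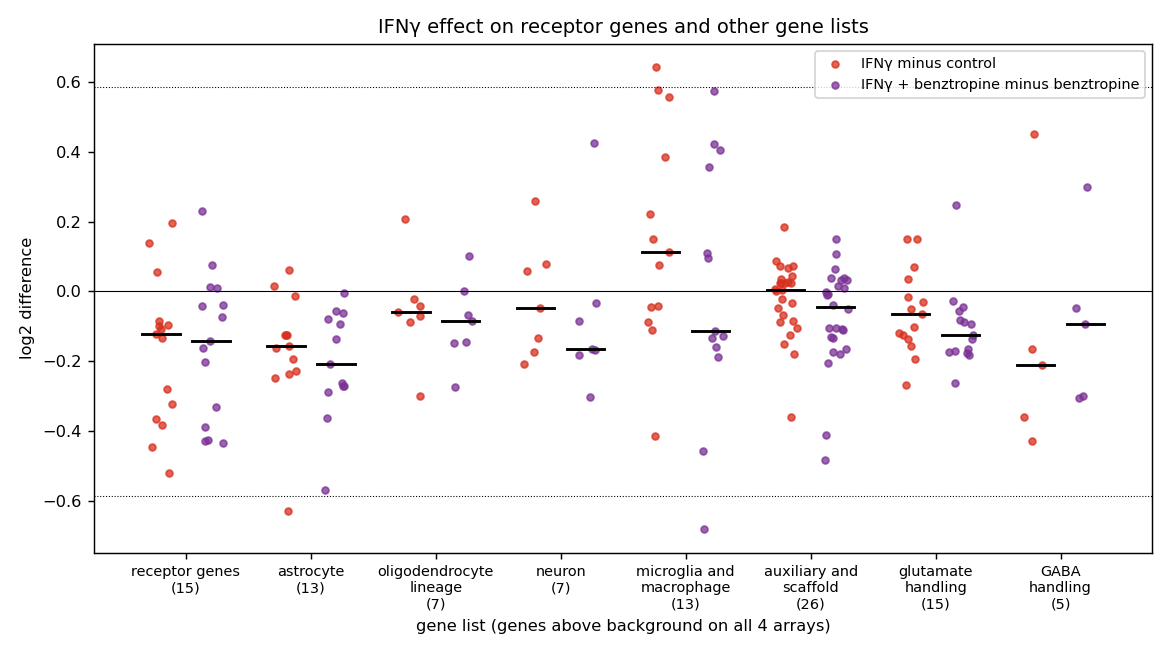
Log2 difference with IFNγ (red) and, in the presence of benztropine, with both agents (purple) for genes above background on all 4 arrays, 1 point per gene, with the median of each list as a bar and dotted lines at 1.5-fold. The median of the receptor genes is −0.12 and −0.14, and that of the astrocyte list is −0.16 and −0.21.

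No receptor gene passed 1.5-fold with benztropine against control, where 0.464% of all genes did (0.271% higher and 0.194% lower), or with both agents against IFNγ, where 0.514% did (0.239% higher and 0.275% lower). The median over the 40 genes was −0.04 and 0.01 in these pairs, beside 0.01 and −0.02 over all genes. *Gabra2*, which encodes an alpha subunit, was lower with benztropine than in control by 0.31 on the log2 scale, and lower with both agents than with IFNγ by 0.28. It was the 1 receptor gene past 1.2-fold in both pairs, where 0.631% of all genes passed downward and 0.577% upward. Among genes above background on all 4 arrays these shares were 0.193% and 0.266%. After quantile normalization of the 4 arrays the differences were −0.31 and −0.25, so that the second no longer passed. With both agents against control, a comparison outside these pairs, *Gabra2* differed by −0.73, which is past 1.5-fold. The share of all genes past 1.5-fold in that comparison was not computed. For *Gabra2* the −0.73 was close to the sum of its single differences of −0.45 and −0.31. In the limma fit its benztropine estimate was −0.29 ± 0.07 (limma adjusted p = 0.69). Limma called 0 genes for benztropine over the whole array. With no adjustment, 1 receptor gene had p under 0.05, *Gabra2*, which was lower, where 3.61% of all genes were lower and 3.53% higher. *Grik3* was higher with benztropine than in control by 0.32, and differed by 0.06 with both agents against IFNγ.

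The departure from adding, that is the IFNγ difference in the presence of benztropine minus that in its absence, lay between −0.26 (*Grik3*) and 0.21 (*Grik2*) for the 15 receptor genes above background on all arrays. The middle 95% of all such genes lay between −0.34 and 0.27. The middle 95% of all 22180 genes lay between −0.46 and 0.41. Among the other receptor genes, *Gabrp*, named here after its values were seen, departed by 0.72, *Gabre* by 0.42 and *Grm3* by −0.68. The *Gabrp* signal was 6.14 with both agents, 5.67 with IFNγ, 5.84 with benztropine and 6.09 in control, and all of these were below background.

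Genes for partners of the receptors and for handling of the transmitters had no member past 1.5-fold in the 4 comparisons. Over all genes, 1.68% passed with IFNγ against control and 1.6% with both agents against benztropine. With benztropine against control 0.464% passed, and with both agents against IFNγ 0.514%. At such shares, lists of this size would hold few calls or none. Of 37 genes for auxiliary subunits, scaffolds and related receptors, 26 were above background on all arrays and 0 passed 1.5-fold in any of the 4 comparisons. Over the 26, the median log2 difference was 0.00 with IFNγ against control and −0.05 with both agents against benztropine. *Cnih2*, an auxiliary protein of AMPA receptors, was the lowest in both, at −0.36 and −0.48, and *Shisa9*, another AMPA receptor auxiliary protein, differed by −0.15 and −0.41. *Cacng7*, of the family of AMPA receptor trafficking proteins, read 11.20 with both agents, 11.29 with IFNγ, 11.38 with benztropine and 11.27 in control. *Homer3*, a scaffold of metabotropic receptors, was higher with benztropine than in control by 0.30.

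Of 20 genes for transport and metabolism of glutamate, 15 were above background on all arrays. In no comparison did any of them pass 1.5-fold, where 0.464% to 1.68% of all genes did. The uptake gene *Slc1a3*, which is also in the astrocyte list, had log2 signals of 11.08 with both agents, 11.29 with IFNγ, 11.35 with benztropine and 11.45 in control, and differed by −0.16 and −0.26 in the pairs for IFNγ. *Slc1a4*, an exchanger of neutral amino acids, differed by −0.27 and −0.18, and *Got1*, a transaminase that forms glutamate, by 0.15 and 0.25. Of 11 genes for GABA, 5 were above background on all arrays and 0 passed 1.5-fold, where the same shares of all genes did. *Maob*, a mitochondrial monoamine oxidase that takes part in making GABA in astrocytes, had 7.20 with both agents and 7.20 with IFNγ, against 6.90 with benztropine and 6.75 in control, differences of 0.30 with both agents against benztropine and 0.45 with IFNγ against control. *Aldh5a1*, whose enzyme forms succinate in the breakdown of GABA, was lower by 0.36 and 0.30 in the pairs for IFNγ. The GABA uptake gene *Slc6a11* differed by −0.43 with IFNγ against control and by −0.09 with both agents against benztropine.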

How the data were processed

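Total RNA of cultured cerebral cells was hybridised to 4 Affymetrix arrays, 1 per condition, each with RNA mixed from independent cultures. The authors deposited log2 signals, made with the RMA algorithm of Affymetrix Expression Console, which corrects background, normalizes quantiles and summarizes probe sets. They were used as deposited, with array medians of 6.65 to 6.68, and are not centered per gene. The probe sets' genome build is not given in the sources used here. The number of arrays limits the precision.

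Of 41345 probe sets, 23521 carry 1 symbol, updated through gene IDs, 1820 several and 16004 none, and the first were averaged to 22180 genes. Pairs were compared at 1.5-fold with no test. Additive limma (3.58.1, R 4.3.3) with Benjamini-Hochberg adjustment used all genes and was tried on simulated data. The simulated log2 changes were of 1 and 2 in either direction, larger than any receptor estimate. The trial thus does not cover changes of the size seen in receptor genes. Python 3.11.15 and statsmodels 0.14.6 served for the rest. Alternatives concerned thresholds, background, probe sets, filters, scaling, the loess span (0.3) and limma variances. The members, lists and rules were chosen with earlier results of these data known. Named were members above background on at least 1 array, members past 1.5-fold, up to 2 others per family with the highest control signal, and up to 4 genes per list with the largest difference or highest signal. Symbols of the GABA-A delta, epsilon, pi, theta and rho subunits were counted as members.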

Additional observations from a re-analysis of the deposited data

Results flagged for a closer look

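*Grm3* was the 1 receptor gene with an IFNγ difference that passed 1.5-fold in one pair of arrays and had the opposite sign in the other. It differed by −0.61 with both agents against benztropine and by 0.07 with IFNγ against control, a gap of −0.68 on the log2 scale. All 4 signals were below background, and the gap was not tested, since each condition had 1 array.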

How the results depend on the processing

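Of 260 values recomputed under alternatives, 11 moved, all given here. A count was said to move if it changed by more than 1.5-fold or to or from 0. A difference or median was said to move if it shifted by 0.0587 or more on the log2 scale. Of the 260, 152 were differences of single named genes that did not move. With the 99th percentile as background, 9 receptor genes were above it with both agents, 10 with IFNγ and 11 in control, against 15, 16 and 17 at the 95th. With benztropine the count went from 16 to 12, which is within 1.5-fold. Also within it were counts from the highest probe set of a gene, 17 with both agents, 18 with IFNγ, 18 with benztropine and 19 in control. Among members above background on at least 1 array of the pair, the median difference was −0.13 with IFNγ against control and −0.12 with both agents against benztropine. Among the 4 pairs compared, the single call past 1.5-fold, *Grm3*, became 0 at 2-fold, with that filter and with a loess trend removed. Limma called 4 receptor genes lower with IFNγ, in place of 0, with a variance trend and with genes below background left out. The cause was not tested. Under quantile normalization, the count of receptor genes past 1.2-fold in both pairs for benztropine, a threshold chosen after the differences were seen, was 0 in place of 1, while that for IFNγ kept the same 5 genes. With 1 array per condition no array could be left out.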
